A study of Mus musculus with 9 samples.

Results

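Immediate early genes outside the FOS, JUN, EGR, NR4A and KLF families were described over 3 groups of NIH 3T3 mouse fibroblasts. The set was given as a list of 10 symbols, Ier2, Ier3, Ier5, Btg2, Zfp36, Csrnp1, Maff, Plk2, Plk3 and Trib1, and each had a probe set with a single symbol, so that all 10 were among the 19935 genes tested. The cells stably carried the pLKO.1 vector (control), an shRNA to Net (NetKD in the text, Net shRNA in the plots) or an shRNA to Sap-1 (SapKD in the text, Sap-1 shRNA in the plots). NIH 3T3 is an immortal line from mouse embryos. All were plated on fibronectin for 2 hours, starved of serum overnight and given bovine serum for 1 hour before lysis, with the serum stated as 10% in the sample protocols and 20% in the series design. Each group held 3 biological replicates, 1 Affymetrix Mouse Gene 1.0 ST array each, and the labels do not state how many transduced lines a group held. If each group was 1 line, p-values measure the spread within lines. No arrays from before serum were analysed here, so whether these genes responded to serum here was not measured, and the values are levels at 1 hour.

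Immediate early genes are transcribed within minutes of a growth stimulus without new protein synthesis. Many are switched on through serum response factor (SRF) and its ternary complex factor partners, ETS-domain proteins that are phosphorylated by ERK, and Net, encoded by Elk3, Sap-1, encoded by Elk4, and Elk-1 make up that group. The products of the genes described here act after that step. Btg2 and tristetraprolin (gene Zfp36) shorten the life of other mRNAs, Maff and Csrnp1 are nuclear DNA-binding proteins, Plk2 and Plk3 are polo-like kinases, Trib1 is a pseudokinase scaffold, and Ier2, Ier3 and Ier5 are small proteins without enzyme activity that are named for their early induction.

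The promoter windows of RefSeq, from 250 bases before to 50 after a gene start in build GRCm38.p6, were read for the 8 genes that matched, Ier3, Ier5, Btg2, Zfp36, Csrnp1, Maff, Plk2 and Plk3. They were searched on both strands for the CArG box, which SRF binds, the ETS motif CCGGAA, the cAMP response element core TGACG and an NF-kB site. Windows are shown for Zfp36, which held both a CArG box and an ETS motif, for Ier5, which held none of the motifs, and for the polo-like kinase genes and Btg2 and Maff, which differed between the knockdowns as given below and held TGACG. Capitals mark the motif matches.
Zfp36 (chr7:28379179-28379478, minus strand): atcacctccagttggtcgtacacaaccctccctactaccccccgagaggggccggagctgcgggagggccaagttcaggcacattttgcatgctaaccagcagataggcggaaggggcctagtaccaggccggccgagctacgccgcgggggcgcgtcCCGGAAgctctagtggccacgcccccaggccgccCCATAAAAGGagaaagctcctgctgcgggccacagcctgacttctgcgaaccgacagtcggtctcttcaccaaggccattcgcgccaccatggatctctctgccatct
Ier5 (chr1:155099587-155099886, minus strand): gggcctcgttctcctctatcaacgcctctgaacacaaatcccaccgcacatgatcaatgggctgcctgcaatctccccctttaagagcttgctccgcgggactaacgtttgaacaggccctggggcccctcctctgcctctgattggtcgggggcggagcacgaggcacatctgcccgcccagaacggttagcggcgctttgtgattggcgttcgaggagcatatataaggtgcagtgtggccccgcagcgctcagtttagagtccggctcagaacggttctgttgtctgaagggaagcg
Btg2 (chr1:134079106-134079405, minus strand): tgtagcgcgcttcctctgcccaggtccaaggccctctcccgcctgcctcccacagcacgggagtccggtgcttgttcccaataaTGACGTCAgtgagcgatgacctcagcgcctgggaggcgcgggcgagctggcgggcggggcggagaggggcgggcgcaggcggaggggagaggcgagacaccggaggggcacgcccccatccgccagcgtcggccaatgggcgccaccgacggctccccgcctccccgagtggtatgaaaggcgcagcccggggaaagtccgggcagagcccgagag
Maff (chr15:79347270-79347569, plus strand): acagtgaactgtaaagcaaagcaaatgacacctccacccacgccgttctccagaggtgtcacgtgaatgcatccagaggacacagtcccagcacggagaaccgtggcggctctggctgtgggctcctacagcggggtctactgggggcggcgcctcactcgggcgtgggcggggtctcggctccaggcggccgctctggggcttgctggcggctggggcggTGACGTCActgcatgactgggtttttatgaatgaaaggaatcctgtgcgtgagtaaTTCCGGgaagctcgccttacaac
Plk2 (chr13:110394794-110395093, plus strand): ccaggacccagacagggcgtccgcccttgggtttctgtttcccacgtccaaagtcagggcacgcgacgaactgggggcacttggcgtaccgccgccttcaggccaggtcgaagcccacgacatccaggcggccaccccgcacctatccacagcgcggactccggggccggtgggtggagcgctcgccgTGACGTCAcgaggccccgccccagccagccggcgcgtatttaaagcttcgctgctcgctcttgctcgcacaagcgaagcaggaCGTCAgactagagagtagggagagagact
Plk3 (chr4:117133914-117134213, minus strand): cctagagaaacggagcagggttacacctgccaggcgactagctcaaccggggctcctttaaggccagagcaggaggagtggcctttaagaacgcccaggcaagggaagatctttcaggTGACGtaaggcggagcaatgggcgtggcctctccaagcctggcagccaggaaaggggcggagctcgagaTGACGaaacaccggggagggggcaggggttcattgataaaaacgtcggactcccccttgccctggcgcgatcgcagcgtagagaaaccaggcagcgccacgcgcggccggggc
A CArG box was found in 1 of the 8 genes, Zfp36, where CCATAAAAGG begins 58 bases before the start and CCGGAA begins 92 bases before it, against 1.81% of all 27025 genes with a window. CCGGAA was found for Zfp36 and Maff (16.7% of all genes), and the NF-kB site for Ier3 and Maff (5.14% of all genes). TGACG was found in 5 of the 8 genes, Btg2, Csrnp1, Maff, Plk2 and Plk3, against 23.0% of all genes. Csrnp1 held TGACG but was not called between the knockdowns, and Ier3 and Ier5 were called there without it. Ier2 and Trib1 had no window. A link of TGACG with the levels was not tested. In Btg2, Maff and Plk2 a pair of overlapping TGACG matches formed the palindrome TGACGTCA, which 2.03% of all genes held. Csrnp1 had 4 windows and Maff 3, which gives a gene more bases in which to match. These are matches of letters, and the windows do not reach more distant sites.

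On the log2 scale of RMA, the normalization the authors used, array medians ran from 7.47 to 7.54, and arrays correlated at 0.998 to 0.999 within groups and 0.988 to 0.995 between groups across probe sets. The fibroblast marker list had a median level of 12.51 in control, 12.43 in NetKD and 12.19 in SapKD cells. Of its 15 genes, 5 were lower in NetKD and 8 in SapKD cells, and none was higher. The median difference of the list was -0.065 in NetKD and -0.13 in SapKD cells. Its log2 levels summed to 179.01 to 179.83 per control array, 177.63 to 178.64 per NetKD array and 170.04 to 170.89 per SapKD array, with the greatest falls in SapKD cells those of Lum, from 10.83 to 6.01, and Pdgfra, from 12.69 to 10.95. Marker lists of macrophage, endothelial, epithelial and skeletal muscle cells had medians of 6.63 to 7.14 over the 3 groups. Summed endothelial marker levels were 84.67 to 85.18 per control array, 87.30 to 88.23 per NetKD array and 86.46 to 86.66 per SapKD array, and summed macrophage marker levels were 80.07 to 80.42, 81.51 to 81.67 and 81.56 to 82.04. Of 12 endothelial markers, 3 were higher in NetKD cells, among them Tek by 1.84. In SapKD cells 3 were higher, among them Emcn by 0.89 and Cdh5 by 0.84, and 1 was lower, Tek by 0.30. Of 12 macrophage markers, 3 were higher in NetKD and 2 higher and 1 lower in SapKD cells. Lyz2 rose by 0.81 and 1.81, and Cd68 rose by 0.23 in NetKD and fell by 0.23 in SapKD cells. Median differences in NetKD and SapKD cells were 0.072 and 0.012 for the endothelial list and -0.00058 and -0.039 for the macrophage list. Of 12 epithelial markers, 2 were higher in NetKD and 1 in SapKD cells, and none was lower. Of 12 skeletal muscle markers, 1 was higher in NetKD cells, and 2 were higher and 1 lower in SapKD cells. Among all genes tested 23.6% were called in NetKD and 29.7% in SapKD cells, and among genes at or above the median level 40.6% and 49.2%. The part of these markers in the differences below was not tested. Of the targeted genes, Elk4 was at 11.07 in control and 9.53 in SapKD cells (limma adjusted p = 9.25e-10), and Elk3 at 11.51 in control and 11.08 in NetKD cells (adjusted p = 1.06e-05). NetKD cells also had less Elk4 (10.63, adjusted p = 2.34e-05) and SapKD cells less Elk3 (11.38, adjusted p = 0.0227), so neither line was lowered in 1 factor alone. In NetKD cells the RNA of Elk4 fell by 0.44, about as much as that of the targeted Elk3, 0.42. In SapKD cells Elk3 fell by 0.12 and the targeted Elk4 by 1.54. Srf fell by 0.19 in the SapKD cells (SE 0.05, adjusted p = 0.00845) and differed by 0.0056 in the NetKD cells (adjusted p = 0.96). Mrtfa and Mrtfb, listed with Srf, fell in the NetKD cells by 0.22 (adjusted p = 0.00276) and 0.39 (SE 0.12, adjusted p = 0.0357). Neither was called in the SapKD cells.

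The differences between groups were small in log2 units for all 10 genes. Set among all genes tested, their ranges of the 3 group means lay at percentiles 47.9 (Zfp36) to 89.6 (Trib1). All 10 stood at or above the median level, and the percentiles were taken over genes of every level. The greatest range of the 3 group means was that of Trib1, 0.48 on the log2 scale, followed by Ier5 with 0.36, and the other 8 genes spanned 0.13 to 0.22. For 8 of the 10 the NetKD mean was the highest, and for 8 of the 10 the SapKD mean was the lowest. The exceptions were Ier5, which was highest in control, Ier2, which was lowest in control, and Csrnp1, which was highest in SapKD and lowest in NetKD cells. The spread within groups ran from 0.03 (Plk3) to 0.11 (Ier2) as a pooled SD, so the genes were not measured with equal precision.

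**Figure D1:**
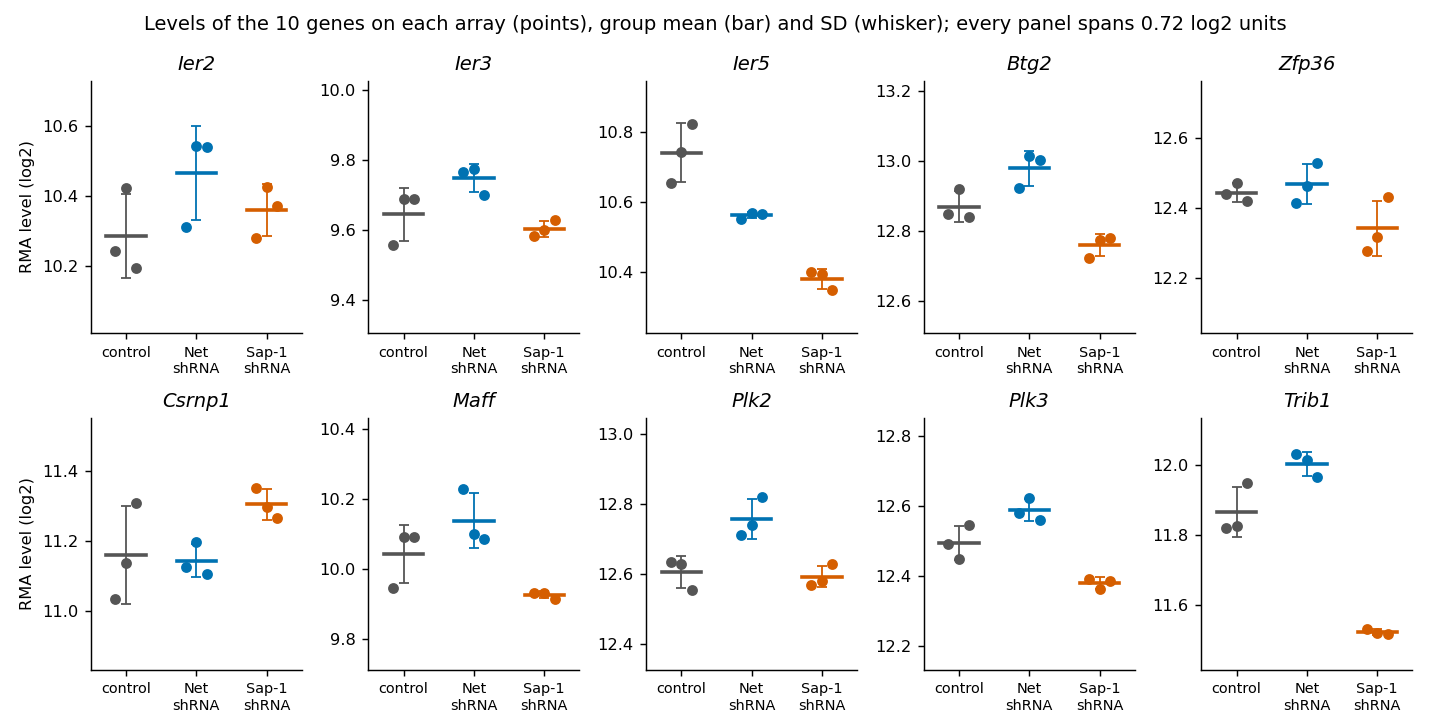
Log2 RMA level (vertical axis) of each of the 10 genes on each of the 9 arrays, in control, NetKD and SapKD cells, with 3 arrays per group as points, the group mean as a bar and the SD as a whisker. The SapKD points of Trib1, 11.52 to 11.53, lie below all other points of that gene, and the points of Ier5 step down from control to NetKD to SapKD.

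In the direct comparison, NetKD cells had higher levels than SapKD cells for 7 of the 10 genes, namely Trib1, Btg2, Maff, Plk3, Ier5, Plk2 and Ier3, and none was lower (limma over all 9 arrays, adjusted p under 0.05 over all genes tested). Of all genes tested, 27.5% were called in this comparison, 14.2% as higher and 13.3% as lower. All 10 genes stood among the 9968 genes at or above the median level, where 46.1% were called and 23.2% were higher. The arrays of these groups did not overlap for 8 of the 10 genes, against 37.4% of all genes and 59.6% of those at or above the median level. The median difference was 0.17 for the 10 genes and 0.02 for all genes tested. With the threshold at an adjusted p of 0.01, the calls were 3, those of Trib1, Btg2 and Plk3.

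Against control the calls were fewer: Ier5 fell in both lines, Trib1 rose in NetKD and fell in SapKD cells, and Plk2 was called in NetKD cells alone. The NetKD calls were 3 of 10 genes, 2 higher and 1 lower, where 23.6% of all genes were called, 13.4% as higher and 10.2% as lower, and 40.6% of those at or above the median level. The NetKD and control arrays did not overlap for 6 of the 10, against 34.3% of all genes and 55.2% of those at or above the median level. The SapKD calls were 2 of 10, both lower, where 29.7% of all genes were called, 15.8% as higher and 13.9% as lower, and 49.2% of those at or above the median level. The SapKD and control arrays did not overlap for 5 of the 10, against 41% and 64.2%. The 3 of 10 in NetKD cells lay above the 23.6% of all genes and below the 40.6% of those at or above the median level. The 2 of 10 in SapKD cells lay below both shares. Counts over 10 genes are too small to be read as a departure from either share. Median differences over the 10 genes were 0.10 in NetKD and -0.11 in SapKD cells, against -0.0023 and -0.018 over all genes tested. The comparisons share their control or knockdown arrays and are not independent of each other.

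**Figure D2:**
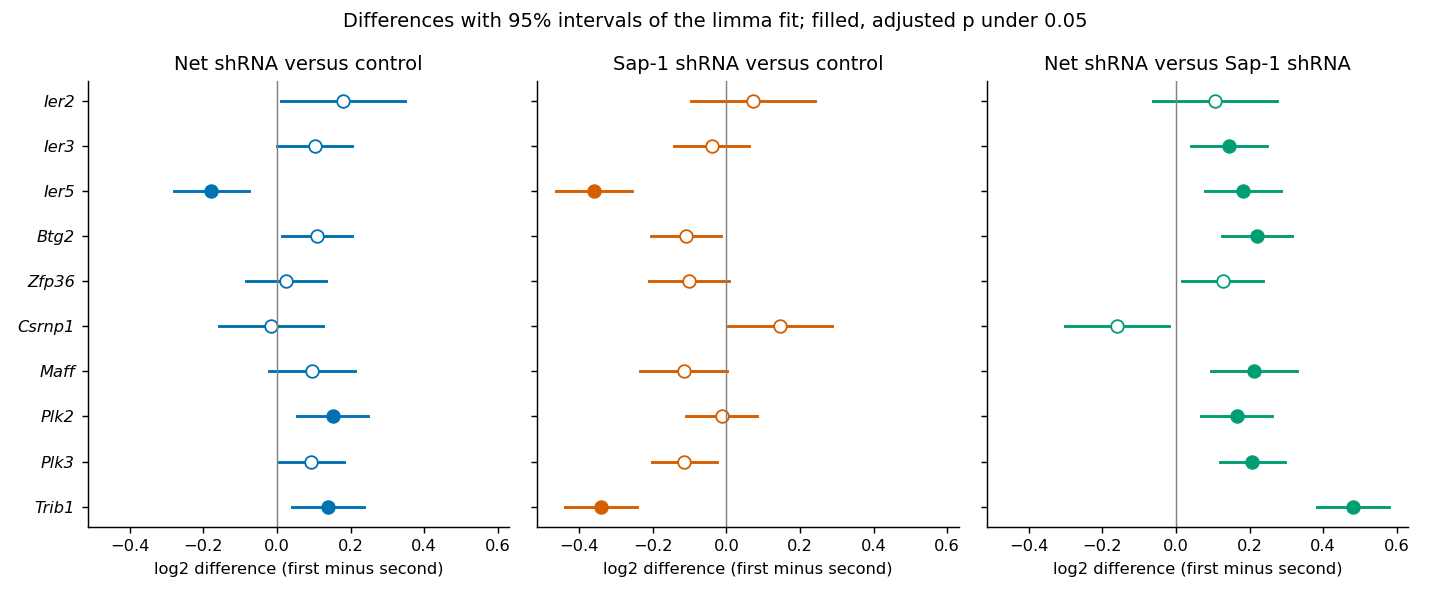
Log2 difference of each gene (horizontal axis, first group minus second) in the 3 comparisons, with the 95% interval of the limma fit as a line and a filled point where the adjusted p was under 0.05. In NetKD against SapKD cells 7 points are filled and all 7 lie above 0, and against control 3 points are filled for NetKD and 2 for SapKD.

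Trib1, a pseudokinase of the Tribbles family that brings the ubiquitin ligase COP1 to its substrates, differed most. Its levels were 11.82, 11.83 and 11.95 on the control arrays, 12.03, 12.01 and 11.97 on the NetKD arrays and 11.53, 11.52 and 11.52 on the SapKD arrays. No 2 groups overlapped, and the SapKD arrays were the closest to each other. Trib1 fell by 0.34 in the SapKD cells (SE 0.04, 95% interval -0.44 to -0.24, limma adjusted p = 0.000129), a level 0.789 times that of control, and was called under all 18 other settings tried. It rose by 0.14 in the NetKD cells (SE 0.04, adjusted p = 0.0422), a call that was lost on leaving out any array but control replicate 3 (adjusted p of 0.0501 to 0.14). Without control replicate 3, the highest of its group, the difference was 0.18 (adjusted p = 0.013). Between the knockdowns the difference was 0.48 (SE 0.04, 95% interval 0.38 to 0.58, adjusted p = 1e-05), or 39.6% more, and ranked 1303 of the 19935 genes by size.

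Ier5, a nuclear protein known to act with heat shock factor 1, was the other gene called against control in both lines, and it fell in both. Control arrays read 10.66, 10.74 and 10.82, NetKD arrays 10.55, 10.57 and 10.57, and SapKD arrays 10.40, 10.39 and 10.35. Each group was separate from the others, with the widest spread in control. The fall was 0.36 in SapKD cells (SE 0.05, 95% interval -0.46 to -0.26, limma adjusted p = 0.000126), to 0.779 times the control level, and was called under all 18 other settings. In NetKD cells Ier5 fell by 0.18 (SE 0.05, adjusted p = 0.0162), a call lost without control replicate 3 (-0.14, adjusted p = 0.061). Levels were higher in NetKD than in SapKD cells by 0.18 (SE 0.05, adjusted p = 0.0121). That difference was 0.094 with the median of the neighbouring genes taken off (adjusted p = 0.195), a correction described below.

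Ier2 and Ier3 were not called against control. Ier2, a nuclear protein, read 10.25, 10.42 and 10.19 in control, 10.31, 10.54 and 10.54 in NetKD and 10.28, 10.43 and 10.37 in SapKD cells, with overlap between all groups. It had the widest spread of the set, and its difference from control was 0.18 in NetKD cells (95% interval 0.010 to 0.35, limma adjusted p = 0.128) and 0.07 in SapKD cells (95% interval -0.096 to 0.24, adjusted p = 0.539). Without control replicate 2 or without NetKD replicate 1 the NetKD value became 0.25 (adjusted p = 0.0468) or 0.26 (adjusted p = 0.0252). Ier3, also called IEX-1 and known as a regulator of cell survival, read 9.56, 9.69 and 9.69 in control, 9.77, 9.78 and 9.70 in NetKD and 9.58, 9.60 and 9.63 in SapKD cells. The knockdowns did not overlap for Ier3, which was higher in NetKD cells by 0.14 (SE 0.05, adjusted p = 0.0394). That call was lost on leaving out NetKD replicate 1 or 2 or any of the SapKD replicates (0.13 to 0.16, adjusted p of 0.057 to 0.11).

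The genes of mRNA decay were Btg2, an antiproliferative protein that recruits the CCR4-NOT deadenylase, and Zfp36, whose product tristetraprolin binds AU-rich elements. Btg2 read 12.85, 12.92 and 12.84 in control, 12.92, 13.01 and 13.00 in NetKD and 12.72, 12.78 and 12.78 in SapKD cells. The groups did not overlap, although the highest control and the lowest NetKD array both round to 12.92, and control lay between the knockdowns, with differences of 0.11 in NetKD (limma adjusted p = 0.0952) and -0.11 in SapKD cells (adjusted p = 0.0825). NetKD cells were above SapKD cells by 0.22 (SE 0.04, 95% interval 0.12 to 0.31, adjusted p = 0.00248), a difference called under all 18 other settings. Without NetKD replicate 1 the NetKD value against control became 0.14 (adjusted p = 0.0487). In all, the difference of Btg2 from control was called under 4 of 18 other settings in NetKD and 3 of 18 in SapKD cells. Zfp36 read 12.44, 12.47 and 12.42 in control, 12.41, 12.46 and 12.53 in NetKD and 12.28, 12.32 and 12.43 in SapKD cells, and all groups overlapped. It lay at 0.024 in NetKD cells (95% interval -0.085 to 0.13, adjusted p = 0.807) and at -0.10 in SapKD cells (95% interval -0.21 to 0.0072, adjusted p = 0.161). Without SapKD replicate 3, the highest of that group, it was -0.15 against control (adjusted p = 0.0439) and 0.17 between the knockdowns (adjusted p = 0.024). Of 18 other settings, Zfp36 was called under 1 in SapKD cells against control and under 4 between the knockdowns.

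Among the nuclear DNA-binding proteins, Maff, a small Maf factor without an activation domain of its own, read 9.95, 10.09 and 10.09 in control, 10.23, 10.10 and 10.08 in NetKD and 9.93, 9.93 and 9.91 in SapKD cells. The SapKD arrays lay below all others and within 0.02 of each other. Maff was higher in NetKD than in SapKD cells by 0.21 (SE 0.05, limma adjusted p = 0.0109), and its differences from control were 0.095 in NetKD (adjusted p = 0.26) and -0.12 in SapKD cells (adjusted p = 0.134). Without control replicate 1 the latter was -0.16 (adjusted p = 0.0395). Csrnp1, a cysteine- and serine-rich nuclear protein, ran the other way, with 11.03, 11.14 and 11.31 in control, 11.13, 11.20 and 11.11 in NetKD and 11.35, 11.30 and 11.27 in SapKD cells. The NetKD values lay inside the range of control, SapKD overlapped control at its top, and the knockdowns did not overlap each other. The difference was 0.14 in SapKD cells (adjusted p = 0.124), -0.016 in NetKD cells (adjusted p = 0.909) and -0.16 between the knockdowns (adjusted p = 0.0927). Without control replicate 3 the SapKD value was 0.22 (adjusted p = 0.0125), and the difference between the knockdowns passed without control replicate 1 or 3 (adjusted p = 0.0497 and 0.0309). That difference also passed with each array centred on its median, with only the 6 arrays compared, and with only genes at or above the median level tested. In all it was called under 5 of 18 other settings.

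Plk2, a polo-like kinase that acts in centriole duplication, rose in NetKD cells. It read 12.64, 12.63 and 12.55 in control, 12.71, 12.74 and 12.82 in NetKD and 12.57, 12.58 and 12.63 in SapKD cells, so that the NetKD arrays stood above all others. The rise was 0.15 (SE 0.04, 95% interval 0.05 to 0.25, limma adjusted p = 0.0274). It was lost without control replicate 2 (0.16, adjusted p = 0.0516), control replicate 3 (0.13, adjusted p = 0.0996), NetKD replicate 2 (0.16, adjusted p = 0.0505) or NetKD replicate 3 (0.12, adjusted p = 0.108). In SapKD cells Plk2 lay at -0.013 (95% interval -0.11 to 0.084). The difference between the knockdowns was 0.16 (SE 0.04, adjusted p = 0.0154), and it was lost without NetKD replicate 3 (0.13, adjusted p = 0.0662), SapKD replicate 1 (0.15, adjusted p = 0.0546) or SapKD replicate 2 (0.16, adjusted p = 0.053).

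Plk3, a polo-like kinase of the stress response, read 12.49, 12.45 and 12.55 in control, 12.58, 12.62 and 12.56 in NetKD and 12.39, 12.36 and 12.39 in SapKD cells. No groups overlapped. NetKD cells were above SapKD cells by 0.21 (SE 0.04, 95% interval 0.12 to 0.30, limma adjusted p = 0.00231), a call made under all 18 other settings. Control lay between them, with differences of 0.093 in NetKD (adjusted p = 0.131) and -0.11 in SapKD cells (adjusted p = 0.0537). The latter passed without control replicate 2 (-0.14, adjusted p = 0.0466), and in all it was called under 5 of 18 other settings.

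Each difference was also taken after the median deviation of 50 neighbouring genes on the chromosome had been removed from every array, since stretches of a chromosome can differ between cell lines. The 50 were drawn from genes at or above the median level, and genes below that level between them were passed over. Trib1 moved further from 0 in SapKD cells, to -0.48 (limma adjusted p = 2.33e-05), where its neighbours were higher by 0.14. Plk3 went from -0.11 to -0.27 in SapKD cells and was called (adjusted p = 0.000434), and from 0.093 to -0.045 in NetKD cells (adjusted p = 0.489). Its neighbours were higher than control by 0.16 and 0.14 in these lines. Maff went from -0.12 to -0.20 in SapKD cells and was called (adjusted p = 0.00858). Btg2 went from -0.11 to 0.0034 in SapKD cells (adjusted p = 0.958) and from 0.11 to 0.19 in NetKD cells, where it was then called (adjusted p = 0.00688). Ier2 went from 0.18 to 0.0053 in NetKD cells (adjusted p = 0.975), where its neighbours were higher by 0.17. Plk2 went from 0.15 to 0.22 in NetKD cells (adjusted p = 0.00674). Between the knockdowns Plk2 went from 0.16 to 0.34 (adjusted p = 0.000296) and Trib1 from 0.48 to 0.64 (adjusted p = 2.45e-06). The part of the chromosomal surroundings in these differences was not tested further.

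**Figure D3:**
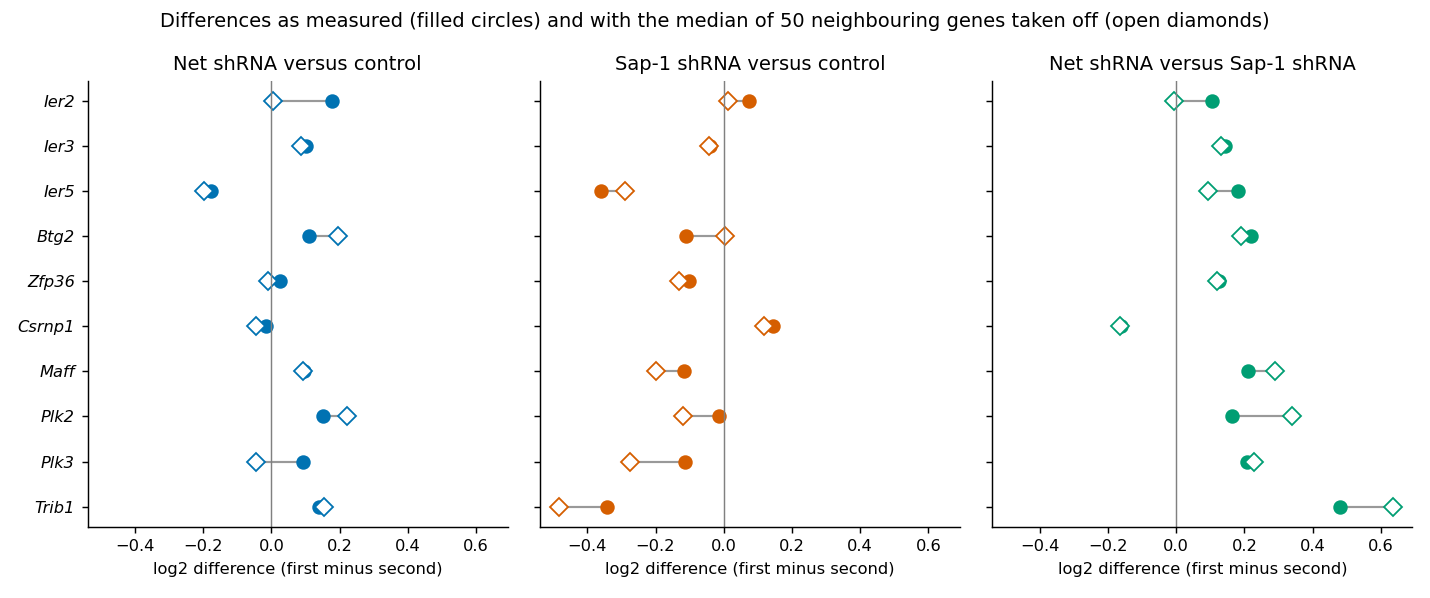
Log2 difference of each gene (horizontal axis) in the 3 comparisons as measured (filled circles) and with the median of 50 neighbouring genes taken off (open diamonds), joined by a line. The neighbours were drawn from genes at or above the median level. The longest lines include those of Ier2 in NetKD cells, from 0.18 to 0.0053, and Plk3 in SapKD cells, from -0.11 to -0.27.

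Some relatives of these genes had differences of greater size than the genes themselves. Of 18 measured paralogs among 20 listed, 5 were higher and 2 lower in NetKD cells, and 3 were higher and 4 lower in SapKD cells. Among all genes 23.6% and 29.7% were called in these lines, and among genes at or above the median level 40.6% and 49.2%. Trib2, the closest relative of Trib1 among the Tribbles genes, fell by 0.98 in the SapKD cells (SE 0.05, limma adjusted p = 5.78e-08) and was higher in NetKD than in SapKD cells by 1.12 (SE 0.05, adjusted p = 1.59e-08). Trib2 rose by 0.14 in NetKD cells (adjusted p = 0.0462), a call made under 8 of 18 other settings. Trib3, a stress-induced pseudokinase, went the other way, up by 0.18 in SapKD (adjusted p = 0.00975) and down in NetKD cells, where it fell by 0.19 (adjusted p = 0.0109). Zfp36l1, a relative of Zfp36 that binds the same elements, rose by 0.48 in NetKD cells (SE 0.06, adjusted p = 0.000139) and fell by 0.64 in SapKD cells (SE 0.06, adjusted p = 9e-06). Both calls were made under all 18 other settings. Zfp36l2 fell by 0.17 in SapKD cells (adjusted p = 0.015).

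In the other families, Ier5l rose by 0.25 in NetKD cells (SE 0.05, limma adjusted p = 0.00194), where Ier5 fell. Tob1, an antiproliferative relative of Btg2, rose by 0.23 in NetKD (adjusted p = 0.00562) and by 0.46 in SapKD cells (adjusted p = 2.87e-05). The small Maf gene Mafk rose by 0.31 in SapKD cells (adjusted p = 0.00424), and Mafg was called in neither line. Maf itself, a large Maf factor with an activation domain, fell by 1.09 in NetKD and by 1.35 in SapKD cells (SE 0.07, adjusted p = 7.27e-07 and 6.14e-08). Plk1, the mitotic polo-like kinase, rose by 0.35 in NetKD cells (SE 0.05, adjusted p = 0.000697), and Csrnp2 was lower in NetKD than in SapKD cells (-0.29, adjusted p = 0.00293). Btg1, Btg4, Tob2, Csrnp3, Plk4, Plk5 and Zfp36l3 passed in none of the 3 comparisons.

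**Figure D4:**
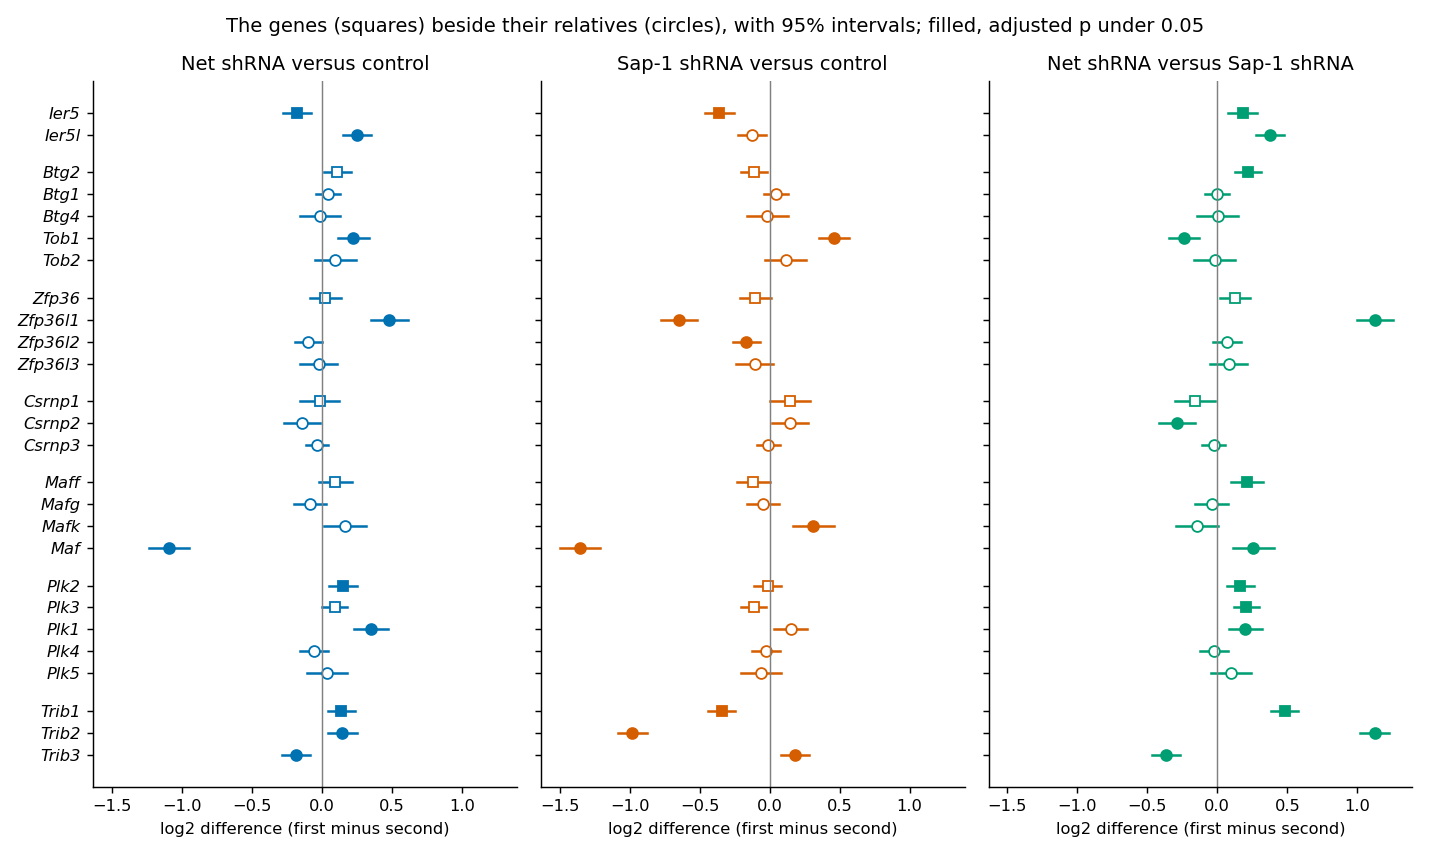
Log2 difference (horizontal axis, first group minus second) of the genes (squares) and their relatives (circles), family by family, in the 3 comparisons, with 95% intervals as lines and filled symbols where the adjusted p was under 0.05. Trib2 and Zfp36l1 lie further from 0 than Trib1 and Zfp36 in SapKD cells, at -0.98 and -0.64, and Maf lies at -1.09 and -1.35 in the knockdowns.

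Early serum response genes of other families were counted in the same way. Of 49 measured genes on that list, 10 rose and 10 fell in NetKD cells, 6 rose and 27 fell in SapKD cells, and 23 were higher and 5 lower in NetKD than in SapKD cells. Among all genes tested 13.4% were higher and 10.2% lower in NetKD cells, 15.8% higher and 13.9% lower in SapKD cells, and 14.2% higher and 13.3% lower between the knockdowns. All but 1 of the 49 genes stood at or above the median level. Among all genes at or above that level, 23% were higher and 17.7% lower in NetKD cells, and 26.9% higher and 22.3% lower in SapKD cells. Between the knockdowns these shares were 23.2% and 22.9%. The list's median differences were -0.0086, -0.17 and 0.11, and 22 to 32 of its genes fell in SapKD cells under the other settings. In NetKD cells the greatest rises among the named genes were those of the nuclear receptor gene Nr4a3, 1.39 (SE 0.09, limma adjusted p = 1.39e-06), the cytokine gene Lif, 1.19 (SE 0.06), the chemokine gene Cxcl1, 1.08 (SE 0.07), and the nuclear receptor gene Nr4a2, 0.82 (SE 0.05). Nr4a2 also rose in SapKD cells, by 1.03 (SE 0.05, adjusted p = 9.31e-08). The kinase gene Sik1 fell by 1.21 there (SE 0.06, adjusted p = 6.4e-08), the synaptic plasticity gene Arc by 0.98 (SE 0.06), and Nfkbiz, a regulator of NF-kB target genes, by 0.82 (SE 0.06). Gem, a small GTPase gene, was higher in NetKD than in SapKD cells by 0.68 (SE 0.05, adjusted p = 7.88e-07).

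Genes that act with the products of these 10 were also counted, and their calls stand beside 23.6% of all genes called in NetKD and 29.7% in SapKD cells, or 40.6% and 49.2% of those at or above the median level. Of 15 genes of the CCR4-NOT deadenylase and AU-rich element binding, 4 rose and 4 fell in NetKD and 2 rose and 2 fell in SapKD cells, with the deadenylase gene Cnot6l down in both, where it fell by 0.37 (limma adjusted p = 0.000503) and by 0.34 (adjusted p = 0.000683). Cnot7, the deadenylase that Btg proteins bind, rose by 0.35 in NetKD cells (adjusted p = 0.000143) and differed by 0.014 once the median of its neighbours was removed (adjusted p = 0.871). Of 15 mRNAs known as tristetraprolin targets, 4 rose and 2 fell in NetKD and 1 rose and 3 fell in SapKD cells. Among these the chemokine gene Ccl2 rose by 0.83 in NetKD (SE 0.06, adjusted p = 2e-06) and fell by 1.25 in SapKD cells (SE 0.06, adjusted p = 3.97e-08). The kinase gene Pim1 fell by 0.87 and 0.67 (adjusted p = 2.17e-05 and 8.53e-05). Of 11 partners of small Maf and Trib1 proteins, 3 fell in NetKD and 1 rose and 5 fell in SapKD cells. Cebpb, a C/EBP factor, fell by 0.58 in SapKD cells (SE 0.07, adjusted p = 0.000102), as did the ubiquitin ligase gene Cop1 (fell by 0.29, adjusted p = 0.000531) and the small Maf partner gene Bach1 (fell by 0.50, adjusted p = 6.71e-05), while the ERK kinase gene Map2k1 rose by 0.40 (adjusted p = 0.000162).

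Genes with the most similar profiles were sought for the 3 genes of greatest range, by Pearson's r over the 9 arrays among genes whose group means spanned at least 0.3. The 9 arrays form 3 groups, so r mostly reflects the order and spacing of the group means. For Trib1 these were Wwtr1, Slc4a2 and Gga2 (r = 0.996, 0.994 and 0.994), with Wwtr1, the gene of the coactivator TAZ, at 10.88 in control, 10.95 in NetKD and 10.64 in SapKD cells. For Ier5 they were Gpr85, Ntn1 and Phf1 (r = 0.997, 0.994 and 0.994), and Ntn1, which encodes netrin-1, stood at 8.93, 8.26 and 7.70 in the same order. For Btg2 they were Tmem106a, Fam122b and Trim25 (r = 0.981, 0.975 and 0.974).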

How the data were processed

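The deposited table holds 28815 probe sets on 9 arrays as log2 levels, which the authors made by RMA. The submitters' processing notes name Affymetrix Expression Console as the software. RMA evens out array distributions and compresses small folds of dim genes. Version, settings and genome build are not given in the sources used here. Symbols came from the platform annotation and were brought up to date by Entrez ID with the RefSeq table of GRCm38.p6. Single symbols, for 21780 probe sets, gave 19935 genes, each by its probe set of highest mean. Each of the 10 genes had 1 probe set. The model, lmFit and eBayes of limma 3.58.1 under R 4.3.3, had 3 group means over 9 arrays, with Benjamini-Hochberg adjustment over all genes and a call at an adjusted p under 0.05. The replicate number was not a block. Errors of differences are standard errors of the fit. The genes and lists were chosen with earlier results of these data known. Named were the 10 genes, the ternary complex factors and Srf, up to 4 called genes per list and comparison with the smallest adjusted p, and the 3 genes most like each of 3 members. Other paralogs, the values of Cnot7 with its neighbours and the promoter palindrome were added after their values were seen. In simulated data of the NetKD comparison over 19935 genes, 50 genes were changed at each fold tried and the rest were not. Of those changed 1.1-fold 4% were called, of those changed 1.2-fold 56%, and of those changed 1.5-fold 98%. In the measured NetKD comparison 4714 genes were called, so its cutoff on the unadjusted p was less strict. The simulated shares therefore do not give the sensitivity of the measured comparison. The number of arrays limits the precision.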

Additional observations from a re-analysis of the deposited data

How the results depend on the processing

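Trib1 and Ier5 in SapKD cells, and Trib1, Btg2 and Plk3 between the knockdowns, kept their direction and their call under all 18 other settings, with ranges of -0.48 to -0.30, -0.40 to -0.29, 0.45 to 0.64, 0.18 to 0.25 and 0.17 to 0.23. In NetKD cells the 3 calls became 5 with an intensity trend and robust variances, 1 with only the 6 arrays compared, 1 with each array centred on its median and 0 at an adjusted p under 0.01, and 1 to 4 on leaving out an array. Genes called in all under these settings were 4957, 4216, 4646 and 3170 of 19935, and 3848 to 4766 on leaving out an array. At an unadjusted p under 0.05, the limma fit held NetKD differences for 7 of the 10 genes. The largest p of the 7, that of Ier3, ranked 6452 of the 19935 genes, so a large share of all genes passed that cut. The share was not counted among genes at or above the median level, where all 10 genes stood, so the 7 cannot be weighed against it. In SapKD cells the 2 calls became 4 with the trend and robust variances, 4 after cyclic loess, 4 with only genes at or above the median level tested and 4 with the neighbours' median taken off, and 2 to 3 on leaving out an array. Genes called in all were then 6051, 6183, 5429 of the 9968 tested, and 6819, and 5043 to 6160 on leaving out an array. Between the knockdowns the 7 calls became 3 at an adjusted p under 0.01, and 5 to 8 on leaving out an array. Genes called in all were then 3993, and 4770 to 5481. With each array centred on its median, 5 of the 10 genes were higher in NetKD than in SapKD cells and 1, Csrnp1, was lower. Genes called in all were then 5516, of which 42.1% were higher, against 51.5% of the 5480 called without centring. With only genes at or above the median level tested, 8 of the 10 genes were higher in NetKD than in SapKD cells and 1, Csrnp1, was lower. Genes called in all under that setting were 5183 of the 9968 tested. The causes were not tested, apart from the thresholds and numbers of genes or arrays that define a setting. Some values not called in the comparison as reported changed sign. With the neighbours' median taken off, Zfp36 went from 0.024 to -0.011 and Plk3 from 0.093 to -0.045 in NetKD cells, Btg2 from -0.11 to 0.0034 in SapKD cells and Ier2 from 0.11 to -0.0059 between the knockdowns. Plk2 turned to 0.0018 in SapKD cells with arrays centred on their medians. On leaving out an array, Zfp36 ran from -0.0058 to 0.051 and Csrnp1 from -0.080 to 0.058 in NetKD cells, and Plk2 from -0.039 to 0.0020 in SapKD cells. Deviations of same-numbered replicates correlated at -0.11 to 0.36 over 9 pairs, and those of different numbers at -0.43 to 0.30 over 18. Own numbers gave the best match in 10 of 18 cases. Since not every same-numbered pair was over 0.1, the numbers were not taken as pairs. That cut is not a test of pairing, and whether same-numbered arrays shared a batch was not tested. With the replicate number as a block the calls remained 3, 2 and 7 in number, with Ier2 gained (adjusted p = 0.0416) and Trib1 lost (adjusted p = 0.0602) in NetKD cells, and genes called in all were 4985, 6263 and 5752, against 4714, 5921 and 5480 without it.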
